A study of Mus musculus with 70 samples.

Results

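The results concern 10 genes of T cells and natural killer cells, out of 24423 genes counted in mouse lung: the T cell receptor chains Cd3e and Cd3d, the coreceptors Cd4 and Cd8a, the cytotoxic granule genes Gzma, Gzmb, Prf1 and Nkg7, the chemokine Ccl5 and the interleukin 18 receptor chain Il18rap. They were chosen by gene symbol, and all 10 symbols were found in the count table. RNA sequencing was done on 70 lungs of male 129S-Slc26a4tm1Erg/AjgJ mice that were either wildtype (Pds+/+) or homozygous knockout (Pds-/-) for Slc26a4, the gene of the anion exchanger pendrin. All were progeny of heterozygous parents. At an age of about 3 months mice of each genotype breathed air, or Min-U-Sil5 silica, a respirable crystalline quartz dust, at 15 mg/m3 for 6 hours a day on 4 days in a whole-body chamber. Lungs were taken 1 day, 3 months or 9 months after exposure, which gave 12 groups of separate mice. Each group held 6 mice, except that wildtype air and wildtype silica at 9 months held 5 each. RNA came from a piece of lung, so that fewer cells of a type and less RNA per cell cannot be told apart.

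T cells recognise antigen through a receptor that signals by the CD3 chains, and CD4 or CD8 marks the helper and the cytotoxic lineage. Cytotoxic T cells and natural killer cells kill by releasing granules, in which perforin opens the target membrane and granzymes cleave proteins inside the target. Interleukin 18, released by macrophages and epithelium, acts on such cells through a receptor of a binding chain (Il18r1) and an accessory chain (Il18rap), and inhaled silica is known for lasting lung inflammation with lymphocytes around the dust-laden macrophages.

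Slc26a4 was checked first. In air it lay between 0.983 and 3.24 CPM (library-size-normalised counts) in knockout lungs and between 4.31 and 15.2 CPM in wildtype lungs of 1 day and 3 months. At 9 months knockout air lungs ranged from 1.31 to 50.5 CPM, and wildtype air lungs from 6.30 to 72.6 CPM. The highest knockout value was in the library labelled knockout, air, 9 months, replicate 4. It was above every knockout silica lung (highest 35.7 CPM), so this gene does not bear out that label. Knockout replicate 5 of that group, at 16.4 CPM, was above every wildtype air lung of the earlier times. After silica the knockout group means were 12.1 to 15.9 CPM and the wildtype means 48.3 to 57.7 CPM. The total count per library ran from 802478 to 5596318, with a median of 2183481.5. Depth differed between the air groups of 1 day, with medians of 3408608.5 in wildtype and 1841630.5 in knockout. The 3 air lungs of 9 months with the most Chil3 (wildtype replicate 5, knockout replicates 4 and 5) had 2921 to 7844 CPM of this macrophage gene against 668 to 1066 CPM in the other air lungs of that time, and the same 3 lungs had 72.6, 50.5 and 16.4 CPM of Slc26a4. Many of the results they enter are also given without them below, and the others were not all repeated here.

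Together the 10 genes took between 0.00349% and 0.0100% of a library's reads. Il18rap had the most reads (2302 over the 70 libraries, median 31 per library) and Gzmb the fewest (316 reads, median 4.5, none in 5 libraries). Divided by exonic length, the mean level over the 70 lungs was highest for Ccl5 at 9.16 ± 4.00 CPM per kilobase (SD, n = 70), followed by Gzma at 7.59 ± 4.35. Cd3e came next at 3.96 ± 1.38 CPM per kilobase, then Cd4 at 3.50 ± 1.00, Il18rap at 3.00 ± 0.93 and Nkg7 at 2.98 ± 1.48. The lowest were Cd3d at 2.49 ± 1.14, Cd8a at 1.95 ± 0.86, Gzmb at 1.42 ± 0.89 and Prf1 at 1.26 ± 0.75 CPM per kilobase. Every gene differed from its neighbour in this order by less than the larger SD of the pair. On the GRCm38 build Cd3e (chr9:44998735-45009663) and Cd3d (chr9:44981769-44987052) are neighbours, and Cd4 (chr6:124864693-124888247) and Cd8a (chr6:71373427-71379171) share a chromosome. The granule genes are on separate ones, Gzma at chr13:113093824-113100981, Gzmb at chr14:56258836-56262334, Prf1 at chr10:61297751-61304684 and Nkg7 at chr7:43437138-43438246. Ccl5 is at chr11:83525778-83530518 and Il18rap at chr1:40515362-40551707. Values are counts over a whole gene. Cd3e is overlapped by 2 other annotated genes, Gm48719 on the opposite strand and Gm48720 on the same strand, and how reads shared with them were counted is not given in the sources used here. The other 9 genes overlap no gene of the GENCODE annotation.

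**Figure D1:**
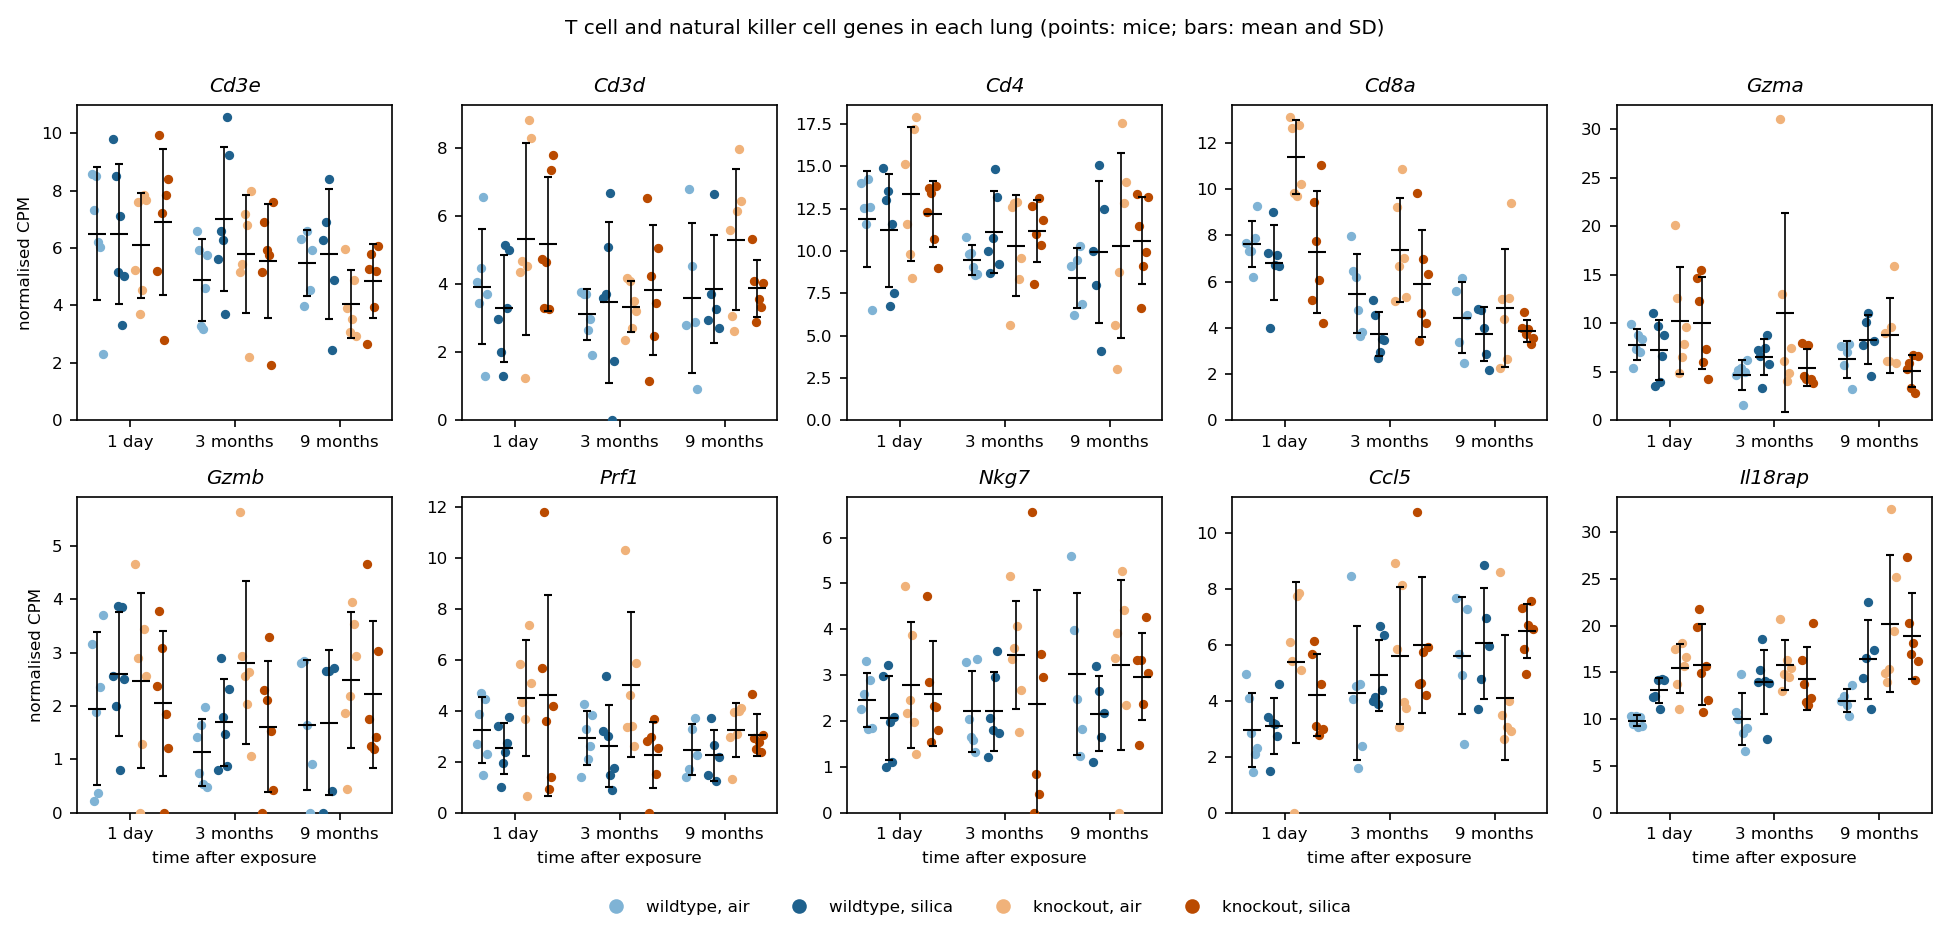
Normalised counts (CPM) of each of the 10 genes in each of the 70 lungs, by time after exposure, with points for mice and bars for the group mean and SD. Il18rap in air is higher in knockout (means of 15.5, 15.8 and 20.2 CPM) than in wildtype lungs (9.81, 9.97 and 12.0 CPM), Cd8a is lower at later times, and 1 knockout air lung of 3 months stands at 31.0 CPM of Gzma.

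Silica against air was compared first, at each time and in each genotype, to ask whether the dust changed lymphocyte RNA in the lung. None of the 10 genes passed the test in any of these 6 comparisons. Il18rap had positive differences of 0.41 to 0.56 on the log2 scale in wildtype lungs at all 3 times, and Cd8a had negative ones in both genotypes at all 3 times. The test was edgeR's quasi-likelihood test with Benjamini-Hochberg adjustment over all genes and a threshold of 0.05, as for every adjusted p that follows. Reads allowed a test of 8 members at 1 day (not Gzmb, Nkg7), 6 at 3 months (not Gzmb, Nkg7, Cd3d, Prf1) and 7 at 9 months (not Gzmb, Nkg7, Prf1). At 1 day 0 of 8 members were called in wildtype lungs, where 2.37% of all genes tested were, and 0 of 8 in knockout lungs (1.93% of all genes). At 3 months 0 of 6 were called in each genotype, against 2.96% of genes in wildtype and 4.8% in knockout lungs. At 9 months 0 of 7 were called, against 0.0234% (3 genes) and 0.179% (23 genes). Without the 3 Chil3-high lungs 211 and 218 genes were called at 9 months and still 0 of 7 members. DESeq2 and limma voom also called 0 in each of the 6. At an unadjusted p under 0.05, 1 of 8 members passed in each genotype at 1 day (13.6% and 11.3% of all genes did) and 1 of 6 in each genotype at 3 months (13.5% and 17.1%). At 9 months 0 of 7 passed at that level in wildtype lungs (6.82% of genes) and 2 of 7 in knockout lungs (10.5%). Leaving out the 3 Chil3-high lungs gave 1 of 7 in wildtype (Il18rap, 13.3% of genes) and 0 of 7 in knockout lungs (11.7%).

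None of the comparisons of the CD3 chains passed. Cd3e in wildtype lungs of 1 day was 2.32 CPM at the lowest, 6.77 at the median and 8.58 at the highest in air, and 3.31, 6.14 and 9.80 CPM after silica. Its log2 difference was 0.00 (SE 0.26, 95% interval -0.54 to 0.53). The air and silica ranges overlapped. At 3 months the wildtype means were 4.89 ± 1.43 CPM in air and 7.00 ± 2.50 CPM after silica (SD, n = 6 each), a log2 difference of 0.44 (SE 0.28, adjusted p = 0.537), while the knockout means were 5.80 ± 2.06 and 5.54 ± 1.98 CPM. Over all 6 comparisons Cd3e lay between -0.08 and 0.44 on the log2 scale, and Cd3d, tested at 1 day and 9 months, between -0.46 and 0.12. The value of -0.46 (knockout, 9 months) was -0.18 without the Chil3-high lungs, and that of 0.12 (wildtype, 9 months) was -0.14. The widest 95% interval among these, for Cd3d in wildtype lungs at 9 months, ran from -0.68 to 0.91.

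Of the coreceptors, Cd4 lay within 0.21 of no log2 difference in all 6 comparisons, but in knockout lungs of 9 months it moved from 0.04 to 0.49 (SE 0.31, adjusted p = 0.597) without the Chil3-high lungs. Cd8a, the chain of the cytotoxic lineage, was lower after silica in all 6. In knockout lungs of 1 day it was 9.71 CPM at the lowest, 11.4 at the median and 13.1 at the highest in air, against 4.21, 6.90 and 11.1 CPM after silica, and the ranges overlapped between 9.71 and 11.1 CPM. The log2 difference was -0.66 (SE 0.20, 95% interval -1.07 to -0.26, adjusted p = 0.0875). Cd8a passed (adjusted p = 0.0216) when knockout silica replicate 5 of 1 day was left out. In wildtype lungs of 3 months Cd8a was 3.63, 5.48 and 7.99 CPM in air and 2.70, 3.49 and 5.21 CPM after silica, a log2 difference of -0.55 (SE 0.28, adjusted p = 0.389). At 9 months the wildtype air lungs had 5.60, 3.40, 6.17, 2.47 and 4.57 CPM, and the wildtype silica lungs 4.81, 4.79, 3.99, 2.87 and 2.17 CPM. Those groups overlapped, with a log2 difference of -0.24 (SE 0.34).

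The granule gene Gzma, a granzyme of natural killer and cytotoxic T cells, had opposite signs in the genotypes at the later times. In knockout lungs of 3 months it was 4.07 CPM at the lowest, 6.81 at the median and 31.0 at the highest in air, and 3.80, 4.42 and 7.96 CPM after silica. The log2 difference was -1.05 (SE 0.38, adjusted p = 0.107), and it was -0.42 without the lung at 31.0 CPM. In wildtype lungs of that time it was 1.59, 5.07 and 6.22 CPM in air and 3.29, 6.91 and 8.80 CPM after silica, a log2 difference of 0.36 (SE 0.41). At 9 months the log2 differences were -0.78 (SE 0.29, adjusted p = 0.319) in knockout and 0.38 (SE 0.31) in wildtype lungs, where air lungs had 7.70, 5.67, 7.00, 7.83 and 3.20 CPM and silica lungs 7.77, 10.1, 11.1, 4.52 and 8.14 CPM. Without the Chil3-high lungs these were -0.40 (SE 0.27) and 0.20 (SE 0.27). The difference between the genotypes' silica effects had an adjusted p of 0.574 at 3 months and 0.563 at 9 months.

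Prf1, which encodes perforin, could be tested at 1 day, with log2 differences of -0.40 (SE 0.45, 95% interval -1.31 to 0.51) in wildtype and -0.05 (SE 0.41) in knockout lungs. Gzmb, another granzyme, and Nkg7, a granule membrane protein, had too few reads for a test within a time. Group means of Gzmb ran from 1.13 CPM (wildtype air, 3 months) to 2.81 CPM (knockout air, 3 months), and those of Nkg7 from 2.06 CPM (wildtype silica, 1 day) to 3.43 CPM (knockout air, 3 months). Ccl5, a chemokine that T cells and natural killer cells release and that draws further leukocytes, differed most in knockout lungs of 9 months. It was 2.63, 3.28 and 8.60 CPM there in air and 4.98, 6.65 and 7.58 CPM after silica, a log2 difference of 0.59 (SE 0.29, adjusted p = 0.474) between overlapping groups.

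Among the members tested for silica against air, only Il18rap had groups that did not overlap. How many of all genes had groups without overlap was not counted here, so this does not set Il18rap apart from genes in general. In wildtype lungs of 1 day Il18rap was 9.12 CPM at the lowest, 9.86 at the median and 10.4 at the highest in air, and 11.1, 13.3 and 14.3 CPM after silica. Every silica lung lay above every air lung, and the log2 difference was 0.41 (SE 0.16, 95% interval 0.09 to 0.74, adjusted p = 0.199). At 3 months the wildtype lungs had 6.60, 9.54 and 14.8 CPM in air and 7.92, 14.1 and 18.6 CPM after silica, with a log2 difference of 0.56 (SE 0.19, adjusted p = 0.11) that passed at 0.0303 without wildtype air replicate 3. At 9 months the wildtype air lungs had 11.9, 12.5, 11.5, 10.3 and 13.7 CPM and the silica lungs 14.4, 16.5, 22.6, 11.1 and 17.4 CPM, a log2 difference of 0.43 (SE 0.24, adjusted p = 0.776). In knockout lungs the log2 differences were 0.02, -0.13 and -0.11 at the 3 times, with SEs of 0.15 to 0.20, and the last was 0.15 (SE 0.19) without the Chil3-high lungs.

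**Figure D2:**
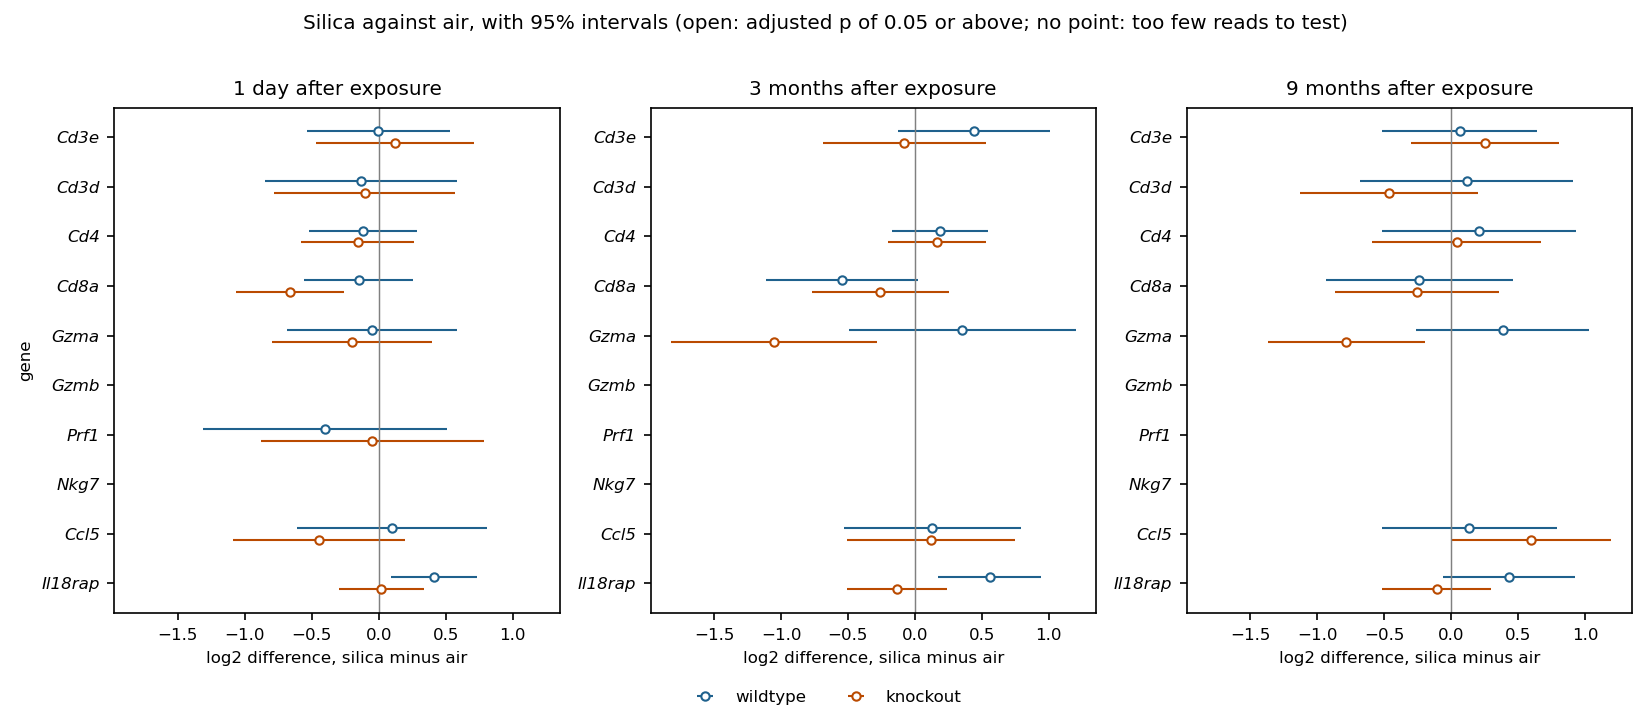
Log2 difference of silica minus air lungs for each gene that could be tested, in 1 panel per time, with points for the estimate and lines for the 95% interval, in wildtype and knockout lungs. All points are open, since none passed the adjusted threshold. Cd8a lies below 0 in all 6 comparisons, and Il18rap lies above 0 in wildtype lungs (0.41, 0.56 and 0.43).

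Other genes of the same cells were counted in silica against air averaged over both genotypes, where 4.59% of genes at 1 day, 7.95% at 3 months and 0.242% at 9 months were called, and 0 of 8, 0 of 6 and 0 of 7 members. DESeq2 and voom called 0 members as well, and 1, 1 and 0 members had an unadjusted p under 0.05 (16.5%, 20.4% and 9.35% of genes did). The last count was 1, Il18rap (0.32, SE 0.15), without the Chil3-high lungs. The T cell surface and identity list had 0 of 11 genes called at each time, with median log2 differences of -0.16, 0.10 and 0.12 against about 0.00 for all genes. Of the T cell receptor list 0 of 12 genes were called at 1 day and 1 of 11 at 3 months, namely Lcp2 (0.40, SE 0.10, adjusted p = 0.00768), a signalling adaptor that myeloid cells also use. Natural killer genes gave 0 of 5, 0 of 4 and 0 of 3.

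At 3 months 7.95% of all genes were called in this averaged comparison. Of the 8 regulatory T cell genes listed, 4 could be tested at that time, and 3 of these 4 rose. They were the inhibitory receptor Ctla4 (1.78, SE 0.27), the interleukin 2 receptor chain Il2ra (0.85, SE 0.25) and the transcription factor Ikzf2 (0.34, SE 0.08). Foxp3, also on the list, averaged 1.70 CPM with no read in 4 libraries, and its result is not given here. Whether regulatory T cells themselves changed was not tested. Of the tissue-resident and exhaustion list 2 of 5 rose at that time, Itgae (1.40, SE 0.13), an integrin of tissue-resident T cells and of some dendritic cells, and Havcr2 (0.69, SE 0.14). Of the 7 naive and central memory genes 2 rose, Il7r (0.47, SE 0.10) and Ccr7 (0.38, SE 0.11), the receptor for homing to lymph nodes. At 9 months Itgae alone of these lists was called (0.78, SE 0.15, adjusted p = 0.0143). Dendritic cell genes moved beside them, with 4 of 7 higher at 1 day, 7 of 9 at 3 months and 1 of 9 at 9 months, as did 3 of 6 genes of all leukocytes at 3 months (Cd52 0.62, SE 0.10). Their part in the rise of Itgae, Havcr2 and Ccr7 was not tested.

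Among chemokines and receptors of lymphocytes 3 of 8 rose at 1 day and 4 of 9 at 3 months. Among them were Ccl3 (3.05, SE 0.32, then 2.62, SE 0.28), Cxcl16 (0.75, SE 0.07, then 0.55, SE 0.05) and Ccr1 (0.73, SE 0.15, then 0.79, SE 0.13). Ccl5 in these averaged comparisons was -0.17 (SE 0.23) at 1 day and 0.12 (SE 0.22) at 3 months. Of the cytotoxic granule list 4 of 11 rose at 1 day and 3 of 9 at 3 months, and none of these were granzymes: Serpinb9 (0.58, SE 0.06, then 0.30, SE 0.05), an inhibitor of granzyme B, Ctsc (0.41, SE 0.07, then 0.31, SE 0.05), a protease that activates granzymes and neutrophil proteases, Serpinb6b (0.29, SE 0.06) and Stx11 (0.36, SE 0.11) at 1 day, and Srgn (0.28, SE 0.08) at 3 months. Macrophage genes (3 of 10 higher at 1 day, 5 of 10 at 3 months) and neutrophil genes (4 of 6, then 1 of 7) moved in the same comparisons, and their part in the rise of Ctsc, Serpinb9 and Srgn was not tested. Of the interferon gamma and interleukin 12, 15 and 18 axis, Ifngr2 (0.32, SE 0.06, then 0.29, SE 0.07) rose at both times and Runx3 (0.47, SE 0.15) at 3 months, while Ifng itself had no read in 54 of the 70 libraries.

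The silica comparison was then averaged over both genotypes and all times, a comparison added after seeing the data, for which 9 members could be tested in a model of all 70 libraries. The share of members called, 1 of 9, was near that of all genes, 9.27%. The 1 called was Cd8a, which fell. Its mean over the groups was 6.86 CPM in air and 5.22 CPM after silica, a log2 difference of -0.35 (SE 0.11, 95% interval -0.56 to -0.14, adjusted p = 0.0222), and 30 of the 35 silica lungs lay below the median of the air lungs of their genotype and time. The adjusted p stayed between 0.0089 and 0.0469 when any 1 of the 70 libraries was left out. Il18rap came next at 0.20 (SE 0.08, adjusted p = 0.0995), which became 0.23 and 0.027 without the library labelled knockout, air, 9 months, replicate 4, and 0.25 and 0.0138 without the 3 Chil3-high lungs. For Il18rap 22 of the 35 silica lungs lay above the median of their air lungs. The granule genes were lower in value without passing: Prf1 -0.32 (SE 0.17), Nkg7 -0.26 (SE 0.18) and Gzma -0.22 (SE 0.15). Cd3e (0.13, SE 0.12), Cd3d (-0.02, SE 0.15), Cd4 (0.06, SE 0.10) and Ccl5 (0.11, SE 0.13) had intervals that held 0. No change of the silica effect between times was called for any of 9 members, from 1 day to 3 months (0.0755% of genes) or from 3 to 9 months (0.732%). The count at an unadjusted p under 0.05 was 0 in both (6.5% and 13.6% of genes), and DESeq2 and voom called 0.

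Knockout was compared with wildtype in air to ask what loss of pendrin did without dust. Averaged over the 3 times, again a comparison added after seeing the data, Il18rap and Gzma were higher in knockout lungs, which made 2 of 9 members called, where 4.86% of all genes were (4 of 9 and 20% at an unadjusted p under 0.05). For Il18rap the knockout air lungs had 11.1 CPM at the lowest, 16.2 at the median and 18.1 at the highest at 1 day, 13.0, 15.2 and 20.7 CPM at 3 months and 14.0, 17.4 and 32.5 CPM at 9 months. The wildtype values are those given above. All 18 knockout lungs lay above the median of the wildtype lungs of their time. The log2 difference was 0.70 (SE 0.11, 95% interval 0.48 to 0.92, adjusted p = 0.000207), with means of 17.2 and 10.6 CPM. It passed with DESeq2, with voom, under other scalings and filters, without the 3 Chil3-high lungs and without any 1 library, with values between 0.63 and 0.75. These air lungs are also the controls of the silica comparisons above.

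Gzma had means of 10.0 CPM in knockout and 6.25 CPM in wildtype air lungs, a log2 difference of 0.79 (SE 0.20, 95% interval 0.38 to 1.19, adjusted p = 0.012). Only 11 of 18 knockout lungs lay above the wildtype median of their time. The highest lung of each time stood at 20.1, 31.0 and 15.9 CPM. Without the lung at 31.0 CPM (knockout air, 3 months, replicate 1) the log2 difference was 0.57 and the adjusted p 0.0523, and without the 3 Chil3-high lungs, which include the one at 15.9 CPM, the values were 0.61 and 0.0749. The filter on low counts keeps a low gene through the lungs where it is high, so the signs are a description only. The sign was positive for 8 of 9 members. Those not called were Prf1 (0.49, SE 0.23, adjusted p = 0.204), Cd3d (0.40, SE 0.21, adjusted p = 0.263), Cd8a (0.37, SE 0.14, adjusted p = 0.109), Nkg7 (0.37, SE 0.24), Ccl5 (0.33, SE 0.19), Cd4 (0.19, SE 0.14) and Cd3e (-0.09, SE 0.17). Gzmb, too low for this test, gave 0.90 with an adjusted p of 0.105 when no filter on low counts was used.

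Within single times none of the members passed in air, against 0.0478% of genes called at 1 day, 0.142% at 3 months and 0.0156% at 9 months. DESeq2 called 1 member at 1 day (Il18rap, adjusted p = 0.0493) and voom 2 (Il18rap, 0.00873, and Cd8a, 0.0241), and both called 0 at the other times, where DESeq2 gave no adjusted p for Il18rap. At an unadjusted p under 0.05 the counts were 4 of 8, 2 of 6 and 1 of 7, where 10%, 10.8% and 10% of all genes passed. The 4 at 1 day were Il18rap (0.69, SE 0.16, adjusted p = 0.0838), Cd8a (0.65, SE 0.18, adjusted p = 0.166), Ccl5 (0.98, SE 0.31, adjusted p = 0.222) and Gzma (0.64, SE 0.29, adjusted p = 0.441). Cd8a at 1 day had 6.20, 7.50 and 9.27 CPM in wildtype and 9.71, 11.4 and 13.1 CPM in knockout air lungs. Ccl5 at 1 day had 1.46, 2.57 and 4.97 CPM in wildtype and 0, 5.77 and 7.86 CPM in knockout air lungs, and the value of 0 came from the library of 802478 counts. At 9 months, without the 3 Chil3-high lungs, Il18rap was 0.55 (SE 0.23) in place of 0.74 (SE 0.23), Gzma -0.05 (SE 0.29) in place of 0.50 (SE 0.30) and Cd4 -0.26 (SE 0.35) in place of 0.26 (SE 0.34), with 0 of 7 called in both. The comparison of 1 day sets the deepest group against a shallow one, and the part of depth in it was not tested.

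**Figure D3:**
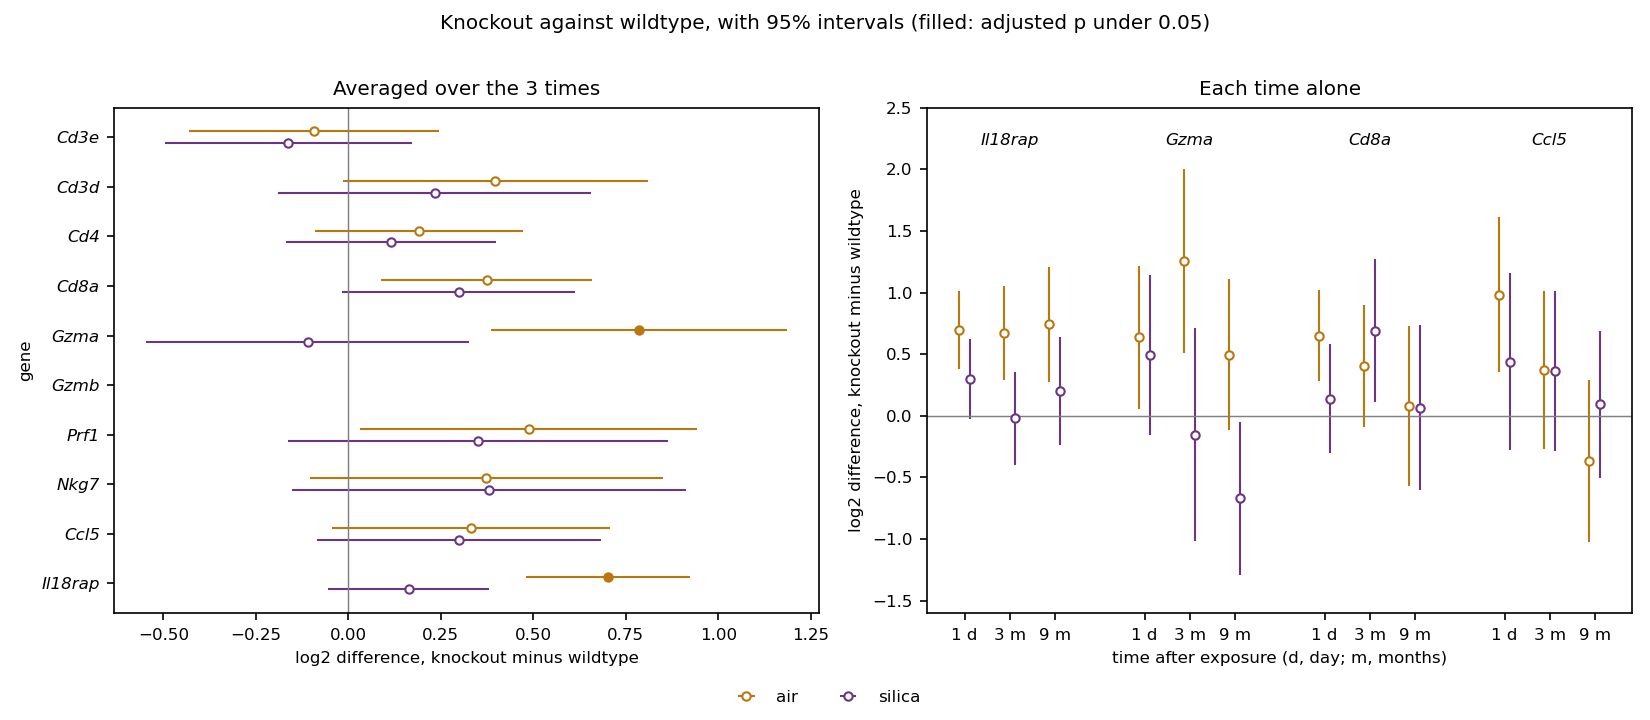
Log2 difference of knockout minus wildtype lungs, with points for the estimate and lines for the 95% interval, in air and after silica: all genes tested, averaged over the 3 times (left), and Il18rap, Gzma, Cd8a and Ccl5 at each time (right). The 2 filled points, Il18rap at 0.70 and Gzma at 0.79 in air, passed the adjusted threshold.

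Some natural killer genes were higher in the same comparison. Of the 19 genes of that list 6 could be tested and 4 were higher in knockout air lungs, with a median log2 difference of 0.70 against 0.00 for all genes: the activating receptors Klrk1 (0.82, SE 0.20, adjusted p = 0.00883) and Ncr1 (0.73, SE 0.21, adjusted p = 0.0251), the kinase Txk (0.67, SE 0.17, adjusted p = 0.0107) and Gzma, which belongs to both lists. The list count was 3 of 6 without the lung at 31.0 CPM of Gzma, and 3 of 6 without the 3 Chil3-high lungs. Genes as low as Ncr1, with a mean of 3.18 CPM over the 70 lungs, pass the filter on low counts through the lungs where they are high. The count and the median of this list are therefore a description only. The summed level of the whole list, Gzma and Prf1 included, lay between 17.5 and 42.0 CPM in the 17 wildtype air lungs and between 31.2 and 92.1 CPM in the 18 knockout air lungs. Many of its receptors had counts near 0, the reason for which was not tested: Klra4 had no read in any library and Klra8 none in 68 of 70. Cytotoxic granule genes gave 4 of 12 higher: Gzma, Stx11 (0.38, SE 0.09), Ctsc (0.21, SE 0.06) and Serpinb9 (0.18, SE 0.05). That count was 1 without the lung at 31.0 CPM of Gzma, 2 without the library labelled knockout, air, 9 months, replicate 4, and 1 without the 3 Chil3-high lungs. Of the T cell lists 0 of 11 surface genes (median 0.31) and 1 of 12 receptor genes were higher, and the difference between these lists and the natural killer list was not tested. The receptor gene was Lat (0.44, SE 0.14, adjusted p = 0.0483), which was not called under any of these 3 exclusions. Of the naive and central memory list 2 of 7 were higher, among them Il7r (0.34, SE 0.09), and 2 lower, S1pr1 (-0.28, SE 0.08) and Klf2 (-0.46, SE 0.13), both of which endothelium also expresses. In the interferon gamma and interleukin axis Il18rap was the only one of 15 genes called. Its partner chain Il18r1 had 187 CPM in knockout and 178 CPM in wildtype air lungs (0.08, SE 0.06, adjusted p = 0.477), and Il18 itself 18.2 and 15.5 CPM (0.23, SE 0.10, adjusted p = 0.163).

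Genes of other leukocytes moved with them. In knockout air lungs 2 of 7 neutrophil genes were higher, S100a9 (0.95, SE 0.21) and S100a8 (0.83, SE 0.23), as were 2 of 6 genes of all leukocytes, Ptprc (0.36, SE 0.07) and Cd52 (0.38, SE 0.12), 2 of 10 B cell genes, Fcer2a (0.81, SE 0.20) and Ms4a1 (0.48, SE 0.14), and 1 of 10 macrophage and monocyte genes, the chemokine receptor Ccr2 (0.67, SE 0.11). Without the 3 Chil3-high lungs the neutrophil and the leukocyte list each gave 1. The summed neutrophil level was 35.3 to 179 CPM in wildtype and 83.7 to 415 CPM in knockout air lungs, and no neutrophil marker was at 0 in a whole group. Their part in the higher Il18rap and Gzma was not tested.

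After silica the genotypes were compared in the same way. Averaged over times 0 of 9 members were called, where 0.106% of genes were. No member had an unadjusted p under 0.05 (7.34% of genes did), and DESeq2 and voom called 0. Il18rap had means of 16.4 CPM in knockout and 14.5 CPM in wildtype silica lungs, a log2 difference of 0.16 (SE 0.11, 95% interval -0.05 to 0.38), and Gzma had 6.85 and 7.37 CPM, a log2 difference of -0.11 (SE 0.22, 95% interval -0.55 to 0.33). The natural killer list gave 0 of 6 (median 0.32). At single times 0 members were called at 1 day (0.00796% of genes), 3 months (0.174%) and 9 months (0%), also by DESeq2 and voom. The counts at an unadjusted p under 0.05 were 0, 1 and 1 (7.64%, 10.3% and 3.99% of genes), with Cd8a at 3 months (0.69, SE 0.28, adjusted p = 0.377) and Gzma at 9 months (-0.67, SE 0.30, adjusted p = 1).

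Whether the silica effect differed by genotype was tested as an interaction. Averaged over times 0 of 9 members passed, where 0% of genes did, and 2 had an unadjusted p under 0.05 (9.94% of genes did). These were Il18rap (-0.54, SE 0.16, 95% interval -0.85 to -0.23, unadjusted p = 0.000867, adjusted p = 0.208) and Gzma (-0.90, SE 0.30, 95% interval -1.49 to -0.30, unadjusted p = 0.00337, adjusted p = 0.278). Without the 3 Chil3-high lungs they were -0.48 and -0.72, with adjusted p-values of 0.193 and 0.349. DESeq2, which gave no adjusted p for either gene, and voom called 0 members. The contrast uses the same air and silica lungs as the comparisons above. Within single times 0 members passed at any of the 3 times (0% of genes at each), by any of the 3 tools, and 0, 2 and 1 had an unadjusted p under 0.05 (5.7%, 7.67% and 7.02% of genes). The 1 at 9 months, Gzma (-1.17, SE 0.42), was -0.61 (SE 0.38) without the Chil3-high lungs, where 0 of 7 passed. A difference between the genotypes' silica effects was therefore not shown for Il18rap or Gzma.

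Air lungs of different times were compared to describe the members without dust as the mice aged. Time after exposure, age and collection cannot be told apart, and the p-values compare these mice. From 1 day to 9 months Cd8a and Cd4 fell and Il18rap rose, 3 of 9 members called, where 35.2% of all genes were, so the share called was near that of all genes. At an unadjusted p under 0.05 these were 4 of 9 and 43.3%. Without the 3 Chil3-high lungs 2 of 9 were called: Cd8a (-0.98, adjusted p = 4.23e-05) and Cd4 (-0.62, adjusted p = 0.0071), but not Il18rap (0.19, adjusted p = 0.369). Cd8a was lower in all 11 lungs of 9 months than the median of the air lungs of 1 day of their genotype. Knockout air lungs had 9.71, 11.4 and 13.1 CPM at 1 day, 5.17, 6.84 and 10.9 CPM at 3 months and 2.24, 4.81 and 9.39 CPM at 9 months, and the wildtype values are given above. The means over both genotypes were 9.50, 6.43 and 4.65 CPM. The log2 difference of 9 months from 1 day was -1.01 (SE 0.17, 95% interval -1.36 to -0.66, adjusted p = 2.26e-06), and it passed without any 1 of the 70 libraries and under all 6 alternatives. From 1 day to 3 months it was -0.55 (SE 0.16, adjusted p = 0.165), and from 3 to 9 months -0.47 (SE 0.19, adjusted p = 0.0484), the 1 of 9 members called in a comparison with 29.2% of genes called (2 of 9 and 38.8% at an unadjusted p under 0.05). That last call was lost without the 3 Chil3-high lungs (-0.42, adjusted p = 0.159) and by DESeq2 (adjusted p = 0.0624), and was kept in 41 of the 70 fits without 1 library.

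Cd4 had means of 12.6 CPM at 1 day and 9.35 CPM at 9 months, a log2 difference of -0.44 (SE 0.17, adjusted p = 0.0403), with 9 of 11 lungs below the earlier median. Leaving out 1 library at a time moved its adjusted p between 0.0072 and 0.0945, with the call kept in 59 of 70 fits. Il18rap had means of 12.6 and 16.1 CPM, a log2 difference of 0.34 (SE 0.14, adjusted p = 0.04), with 8 of 11 lungs above the earlier median. It was 0.24 with an adjusted p of 0.162 without the library labelled knockout, air, 9 months, replicate 4, which held 32.5 CPM, and it was not called by voom (0.20, adjusted p = 0.243) or without a low-count filter (adjusted p = 0.0869). The other 6 members did not pass: Cd3e was -0.41 (SE 0.21, adjusted p = 0.115), Prf1 -0.45 (SE 0.29), Gzma -0.29 (SE 0.25), Cd3d -0.06 (SE 0.25), Nkg7 0.16 (SE 0.29) and Ccl5 0.24 (SE 0.24). From 1 day to 3 months 0 of 9 members were called, where 0.113% of genes were. By voom 1 was called (Cd8a, adjusted p = 0.0204) and by DESeq2 0, and 2 had an unadjusted p under 0.05 (8.05% of genes did).

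Other T cell genes between 1 day and 9 months in air are read against the 35.2% of all genes called in either direction. Of the surface and identity list 8 of 11 fell and 1, Cd2, rose, with a median of -0.70 against 0.02 for all genes. Beside Cd8a the smallest adjusted p-values were those of Tcf7 (-0.79, SE 0.12) and Bcl11b (-0.83, SE 0.13), transcription factors of the T cell lineage, and Cd27 (-0.81, SE 0.20), a costimulatory receptor. Of the naive and central memory list 5 of 7 fell and 0 rose, among them Lef1 (-1.28, SE 0.14) and Satb1 (-0.78, SE 0.11), and S1pr1 (-0.66, SE 0.10) and Klf2 (-0.59, SE 0.17), which are also endothelial. Of the receptor list 5 of 12 fell, with Fyn (-0.55, SE 0.09) and Lck (-0.66, SE 0.17), and Lcp2 rose (0.45, SE 0.13), a share called near that of all genes. Without the 3 Chil3-high lungs these lists gave 7 of 11, 4 of 7 and 4 of 12 lower and 0 higher.

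Over the same span all 5 regulatory T cell genes that could be tested, of 8 listed, were higher, where 35.2% of all genes were called. Among them were Ctla4 (1.33, SE 0.39), Il2ra (1.19, SE 0.24), Ikzf2 (0.69, SE 0.09) and Icos (0.64, SE 0.23). The count was 2 of 5 without the 3 Chil3-high lungs and 3 of 5 without the library labelled knockout, air, 9 months, replicate 4. Low genes of this list pass the filter on low counts through the lungs where they are high, so the count is a description only. The chemokine receptor Cxcr6, found on tissue-resident T cells, rose by 1.52 (SE 0.22), from 2.72 to 7.65 CPM. It is 1 gene of the tissue-resident and exhaustion list, whose counts for this span are not given here. Nor is its value without the 3 Chil3-high lungs, and whether tissue-resident T cells rose was not tested. Of the interferon gamma and interleukin axis 6 of 15 rose, among them Il18r1 (0.41, SE 0.07), Il18 (0.60, SE 0.12) and Il12rb2 (0.96, SE 0.24), and Il12a fell (-1.02, SE 0.27), a share called near that of all genes, with 2 higher without the Chil3-high lungs. Of the natural killer list 1 of 6 fell (Txk, -1.08, SE 0.20) and 0 rose. Leukocyte and endothelial RNA changed beside them: all 10 macrophage genes, 6 of 7 neutrophil genes and 5 of 6 genes of all leukocytes rose, and 5 of 6 endothelial genes fell (Cdh5 -0.78, SE 0.07). Without the Chil3-high lungs these counts were 9, 6, 2 and 5. Their part in the fall of Cd8a, Cd4 and the naive T cell genes, or in the rise of Il18rap, was not tested.

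**Figure D4:**
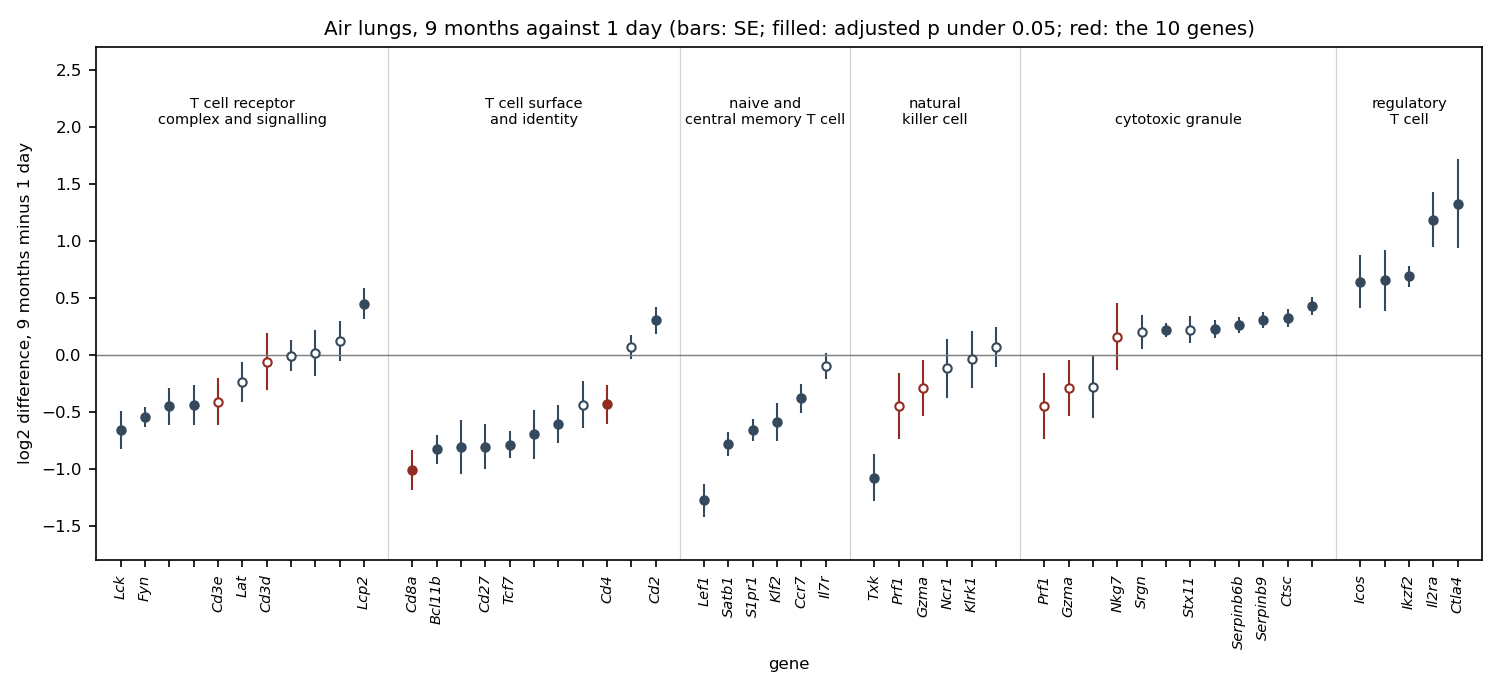
Log2 difference of air lungs of 9 months minus 1 day for testable genes of 6 lists, labelled where the text names them, with points for the estimate and bars for its SE, filled where the adjusted p was under 0.05 and red for the 10 genes. Most T cell surface and naive T cell genes lie below 0 (Cd8a at -1.01, Lef1 at -1.28), and the 5 regulatory T cell genes lie above 0.

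The members were last compared among themselves across the 70 lungs, each value taken as its deviation from the group mean so that the study's conditions played no part. Of 45 pairs 44 had a positive Pearson r, but the values were low, with a median of 0.21 and a range of -0.03 to 0.44. Cd3e and Cd3d, chains of 1 complex, were at -0.03, while the granzymes Gzma and Gzmb gave the highest r, 0.44 (Spearman's rho 0.43, adjusted permutation p = 0.00257, r = 0.41 without the 2 farthest lungs). The genes had a median of 4.5 to 31 reads per library, and the values of a pair share the library and its depth, so the weak values are given as a description only. The p-values here are from 100000 permutations within groups, adjusted over 105 relations of the members with each other and with 6 marker sums.

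Il18rap followed the sum of the 7 neutrophil genes (r = 0.66, rho = 0.64, adjusted permutation p = 0.000525, r = 0.63 without the 2 farthest lungs). It also followed the sums of the natural killer genes (r = 0.59, rho = 0.54) and of the T cell receptor genes (r = 0.58, rho = 0.49), from which the 10 members were left out, both with an adjusted permutation p of 0.000525, of all leukocyte genes (r = 0.52, rho = 0.48, adjusted permutation p = 0.00105) and of B cell genes (r = 0.40, rho = 0.41, adjusted permutation p = 0.00525). For the macrophage and monocyte sum r was 0.29 (adjusted permutation p = 0.0842). Gene by gene, its r with the neutrophil genes had a median of 0.50 and with those of the T cell receptor list 0.30. Gzma followed the natural killer sum (r = 0.55, rho = 0.51, adjusted permutation p = 0.000525, r = 0.59 without the 2 farthest lungs), as did Prf1 (r = 0.58, rho = 0.57, adjusted permutation p = 0.000525), and Cd4 the T cell receptor sum (r = 0.62, rho = 0.50, adjusted permutation p = 0.000525). In the T cell receptor sum Fyn (62.7 CPM) and Lcp2 (33.3 CPM), the adaptor that myeloid cells also use, had the highest means and so weighed most. Gene by gene, the median r of Cd4 with that list was 0.37. Among 14424 genes with a mean of at least 1 CPM, those outside the members most like Cd3e over the 70 lungs were Stat4 (r = 0.49), Ccdc134 (0.46) and Ipcef1 (0.45). For Cd8a they were Gimap3 (0.54), Lrrc4b (0.48) and Exosc8 (0.47), for Gzma Col6a3 (0.58), Hist1h1d (0.56) and Gbp4 (0.56), and for Ccl5 Mrc2 (0.59), AI414108 (0.58) and Sox4 (0.57). As the highest of 14424 values for each member, without a p-value, these are a description only. Over the 67 lungs without the 3 Chil3-high ones, r of Il18rap was 0.66 with the neutrophil sum, 0.59 with the natural killer sum and 0.51 with the T cell receptor sum, and r of Gzma with the natural killer sum was 0.58. Over all 70 lungs the genes most like Il18rap, chosen for this after its values were seen, were Arl5c (0.62), the neutrophil gene S100a9 (0.60) and Sema4d (0.60). No p-value was computed for these either.

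**Figure D5:**
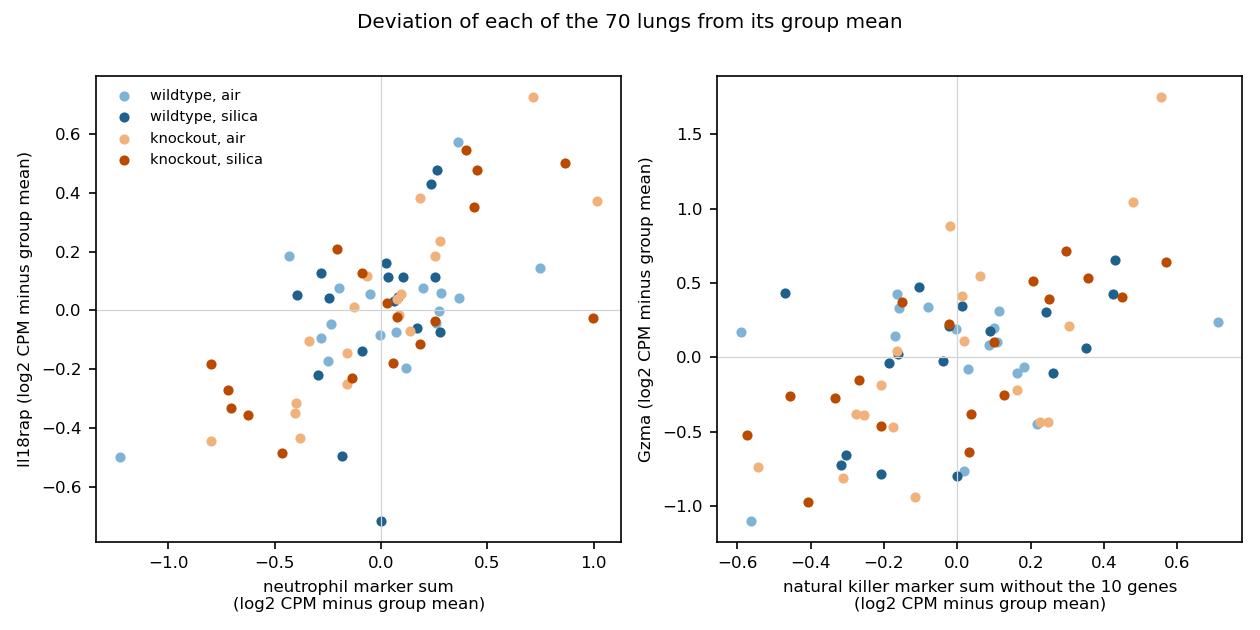
Each of the 70 lungs as its deviation from its group mean on the log2 CPM scale: Il18rap against the summed neutrophil genes (left, r = 0.66) and Gzma against the summed natural killer genes without the 10 members (right, r = 0.55), coloured by genotype and exposure. In both panels lungs high on the x axis tend to be high on the y axis, within a wide scatter.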

How the data were processed

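The authors deposited raw gene counts, whole numbers per gene and library. Per the labels' protocols these came from rRNA-depleted, stranded total RNA libraries amplified with 12 PCR cycles. Per the submitters' processing notes bcl2fastq 2.19, Trimmomatic 0.35, HISAT2 2.1.0, Cufflinks, SAMtools 1.8, HTSeq 0.11.2 and the build mm10 were used. The annotation and strand setting are not given in the sources used here.

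From the deposited counts 16 of 24439 rows, exact repeats, were dropped. edgeR 4.0.16 (filterByExpr, TMM scaling, quasi-likelihood test) was fitted to the 4 groups of each time, and to all 12 groups for comparisons over times, with Benjamini-Hochberg adjustment over all genes. CPM are TMM-normalised over 70 libraries. SEs are the unshrunk log2 coefficient over the square root of F, 95% intervals use them around the log2 difference, and correlations use log2 CPM with a prior count of 2, as deviations from group means, permuted within groups. DESeq2 1.42.0, limma 3.58.1 (voom with quality weights), other scalings and filters, and leaving out libraries were alternatives. An adjusted p that DESeq2 did not give was not counted as called. The fit was tried on data simulated from the libraries of 1 day. Recovery of differences at the members' low read numbers was not examined. Coordinates are from RefSeq (GRCm38.p6) and exonic lengths from GENCODE vM21, both matched for all 10 members.

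The members and gene lists were chosen with earlier results of these data known. The 4 comparisons averaged over times and the exclusion of the 3 Chil3-high lungs were added after seeing the data. Named genes are the members, Slc26a4, up to 4 called genes per list and comparison by smallest adjusted p, and the 3 genes most like Cd3e, Cd8a, Gzma and Ccl5 by Pearson r. Other genes named were chosen after their values were seen. Of the listed genes, Trac, Trbc1, Trbc2, Trdc, Tcrg-C1, Tcrg-C2, Tcrg-C4 and Zfp683 were not analysed here. A few other genes of the lists are counted but not reported by name here.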

Additional observations from a re-analysis of the deposited data

Results flagged for a closer look

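In 8 of 120 member-by-group sets of 5 or 6 lungs, 1 lung lay apart from the rest by more of the group's range than Dixon's 95% limit allows. Chance alone flags about 1 group in 20. Of the T cell genes, Cd3d was 6.65 CPM (15 reads) in wildtype silica replicate 3 of 9 months against 2.71 to 3.73 CPM in the others, and Cd4 was 6.49 CPM in wildtype air replicate 6 of 1 day against 11.6 to 14.2 CPM. Of the granule genes, Gzma was 31.0 CPM (66 reads) in knockout air replicate 1 of 3 months against 4.07 to 13.0 CPM. Gzma was 1.59 CPM (3 reads) in wildtype air replicate 4 of that time against 4.70 to 6.22 CPM. Prf1 was 4.67 CPM (7 reads) in knockout silica replicate 1 of 9 months against 2.37 to 3.04 CPM. The other 3 concern Ccl5. It was 0 in knockout air replicate 3 of 1 day, a library of 802478 counts, against 5.11 to 7.86 CPM, 10.8 CPM in knockout silica replicate 1 of 3 months against 4.22 to 5.91 CPM, and 8.60 CPM in knockout air replicate 1 of 9 months against 2.63 to 3.98 CPM.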

How the results depend on the processing

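Counts of members called were recomputed under other settings (167 stayed within 1.5 times the reported count and 11 did not) and without each library in turn (1012 and 38), and no called value of a single member reversed its sign. For knockout against wildtype in air at 1 day the count of 0 became 1 with DESeq2, 2 with voom and 2 with the compared groups alone. For air lungs at 9 against 3 months the count of 1 became 0 with DESeq2, 0 without a low-count filter, 0 with a mean of at least 1 CPM and 0 without the 3 Chil3-high lungs. For 3 months against 1 day in air 0 became 1 with voom. For silica against air over genotypes and times 1 became 2 with voom and 2 without the Chil3-high lungs, and for knockout against wildtype in air over times 2 became 1 without those lungs. The cause was not tested.

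Leaving out single libraries gave 0 to 1 member for silica against air at 1 day in knockout lungs and over genotypes (1 without knockout silica replicate 5), for knockout against wildtype in air at 1 day (1 without knockout silica replicate 3) and for wildtype silica against air at 3 months (1 without wildtype air replicate 3). It gave 0 to 2 for air at 9 against 3 months, 1 to 3 for 9 months against 1 day (1 without replicate 4 of wildtype air at 1 day, 5 of knockout air at 1 day, and 2 or 5 of wildtype air at 9 months), 1 to 2 for silica over genotypes and times (2 without the library labelled knockout, air, 9 months, replicate 4) and 1 to 3 for knockout against wildtype in air over times (1 without knockout air replicate 1 of 3 months). In the other comparisons it gave 0. No paired analysis was possible because the animal numbers in the labels are all distinct and the groups share none.

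The number of all genes called, against which the members are set, moved more. For knockout against wildtype in air at 1 day it was 6 and reached 181 with voom, at 9 months 2 and 78 with all libraries in 1 model, and averaged over times 644 and 1105 with voom. For silica against air averaged over genotypes at 9 months it was 31 and reached 497 without the Chil3-high lungs, and over genotypes and times 1229 and 2145. For air at 9 months against 1 day it was 4660 and 3074 without those lungs, and at 9 against 3 months 3875 and 2187. A median of 4.5 to 31 reads per member and library limits the precision of these comparisons, and Gzmb and Nkg7 were too low to be tested within a time.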

Other observations

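B cell, plasma cell and lymphoid tissue genes, which no comparison above describes in full, gave these values. After silica at 3 months, averaged over genotypes, 1 of 5 plasma cell genes was higher, Jchain (1.36, SE 0.34, adjusted p = 0.00943 by edgeR), the joining chain of secreted IgA and IgM. The B cell attractant Cxcl13 was the 1 of 2 lymphoid tissue genes higher (1.19, SE 0.26, adjusted p = 0.0028), and 0 of 10 B cell genes were called. Il1rl1, the interleukin 33 receptor of type 2 lymphocytes and mast cells, was the 1 of 3 type 2 genes higher (1.26, SE 0.15). In air, from 1 day to 9 months, Jchain rose by 4.01 (SE 0.41) and Cxcl13 by 1.36 (SE 0.31), with 5 of 6 and 1 of 2 genes of their lists higher, and the sixth plasma cell gene, Prdm1, was lower. Without the 3 Chil3-high lungs the counts higher were 3 and 1. Dividing-cell genes were higher after silica in 6 of 7 cases at 1 day (Mki67 1.91, SE 0.18) and 4 of 5 at 3 months (Mki67 1.13, SE 0.11), and which cells divided was not tested. Markers of T cell development in the thymus were near 0, with no Rag1 read in 48 and no Ptcra read in 65 of the 70 libraries.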
